A study of Monodelphis domestica with 8 samples.

Results

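Trimethylation of lysine 9 of histone H3 (H3K9me3) was examined on the 8 autosomes of the gray short-tailed opossum (Monodelphis domestica), a laboratory marsupial, in fetal brain. All 699 peaks that the authors' deposited H3K9me3 peak list places on chromosomes 1 to 8 were taken, of 979 peaks in that list and 54517 in the 4 lists of the series. The other 280 H3K9me3 peaks lie on the X chromosome or on unplaced sequence and were not analysed here. The series used chromatin immunoprecipitation followed by sequencing (ChIP-seq) on brain from female fetuses at embryonic day 13, with antibodies to H3K9me3, H3K27me3, H3K4me3 and H3K9Ac. For each mark there were 2 libraries, each from the pooled tissue of 2 sister fetuses. One pool came from an LL2 mother and an LL2 father, and the other from an LL1 mother and an LL2 father. The chromatin of all pools was cut with micrococcal nuclease. Both H3K9me3 libraries name the same peak list, so a peak has a single value, no replicate error can be given and no test between samples is possible. Read counts are not part of the lists, which leaves the depth behind a peak unknown. Regions are given by position, since no gene annotation in these coordinates was used, and brain markers could not be checked.

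H3K9me3 is laid down by methyltransferases such as SETDB1 and the SUV39H enzymes and is bound by HP1 proteins. It is the mark of constitutive heterochromatin, the lasting compaction of satellite DNA and transposable elements, and in vertebrate genomes it also covers clusters of zinc finger genes. H3K27me3, laid down by Polycomb repressive complex 2, is the other main repressive mark and is common over silent developmental genes, whereas H3K4me3 and H3K9Ac mark promoters in use or held ready. Reads from repeated sequence cannot be placed uniquely on a genome, so peak lists of this mark usually show only the part of it that lies in mappable sequence.

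The autosomal H3K9me3 peaks were few, short and mostly weak. They covered 736 kb, or 0.0215% of the 3418 Mb between the first and the last peak of any list on each chromosome, the length used here as the span. The H3K27me3 list covered 0.546% of the same span and the H3K4me3 list 1.53%. The median H3K9me3 peak was 867 bp wide, with quartiles at 759 bp and 1147.5 bp and a range from 467 bp to 10342 bp. Only 37 peaks (5.29%) were wider than 2 kb, of which 27 lay on chromosomes 1 and 3, 15 overlapped H3K27me3 and 19 overlapped none of the other lists. Scores are the authors' value per peak and were compared only within the H3K9me3 list. They ran from 50.03 to 666 with a median of 58.1 and an upper quartile of 74.2. Of the 699 peaks, 395 (56.5%) scored under 60, close to the lowest score in the list, and 82 (11.7%) scored over 100. Wider peaks scored higher, with a Spearman rho of 0.56 between score and width over the 699 peaks, which share the same libraries and the same peak caller. Without the densest stretch of chromosome 1, described further on, rho was 0.52. It lay between 0.41 and 0.65 on 7 of the autosomes and was 0.04 on chromosome 6, which has 36 peaks.

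The widest peaks differed in strength. The first, chr3:458630762-458641103, measured 10342 bp and scored 80.9, rank 140 of the list. The next, chr3:481702205-481706969, measured 4765 bp and scored 70.5. Both overlapped no other list, and their nearest H3K4me3 peaks lay 63.8 kb and 465 kb away. The fifth widest, chr3:380611430-380614989, at 3560 bp and a score of 131.7, also stood alone, with 23.6 kb to the nearest H3K4me3 peak. The third and the fourth widest, at 4220 bp and 3722 bp, scored 181.4 and 323 (ranks 21 and 5 of the list) and belonged to a run on chromosome 1 that lay inside H3K27me3.

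The autosomes were then compared for the density of H3K9me3 peaks. Chromosome 3 held 178 peaks on 15.4% of the span, 25.5% of all members, and was the densest, at 0.337 peaks per Mb (exact Poisson 95% interval 0.289 to 0.391). Chromosome 4 followed with 0.248 per Mb (0.204 to 0.2997, 108 peaks) and chromosome 1 with 0.233 per Mb (0.199 to 0.270, 174 peaks), and the intervals of these 2 overlap. The other 5 autosomes had lower values. Chromosome 8 had 0.168 per Mb (52 peaks), chromosome 2 had 0.150 (81 peaks), chromosome 7 had 0.134 (35 peaks), chromosome 6 had 0.124 (36 peaks) and chromosome 5 had 0.115 (0.08005 to 0.160, 35 peaks). Neighbours in this lower order do not differ beyond their intervals, which cover counting error only and take peaks as independent although they are clustered. The densest autosome thus held 2.93 times the density of the sparsest, and the same ratio was 1.60 for H3K27me3, 1.75 for H3K4me3 and 1.75 for H3K9Ac. The order was not that of the other marks. Chromosome 3 had 1.95 H3K27me3 and 5.95 H3K4me3 peaks per Mb, under the autosomal values of 2.19 and 6.46. Chromosome 2, with the most H3K4me3 (7.77 per Mb), was among the 5 autosomes with the lowest H3K9me3 density. These differences between chromosomes come from 1 list and were not tested.

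**Figure D1:**
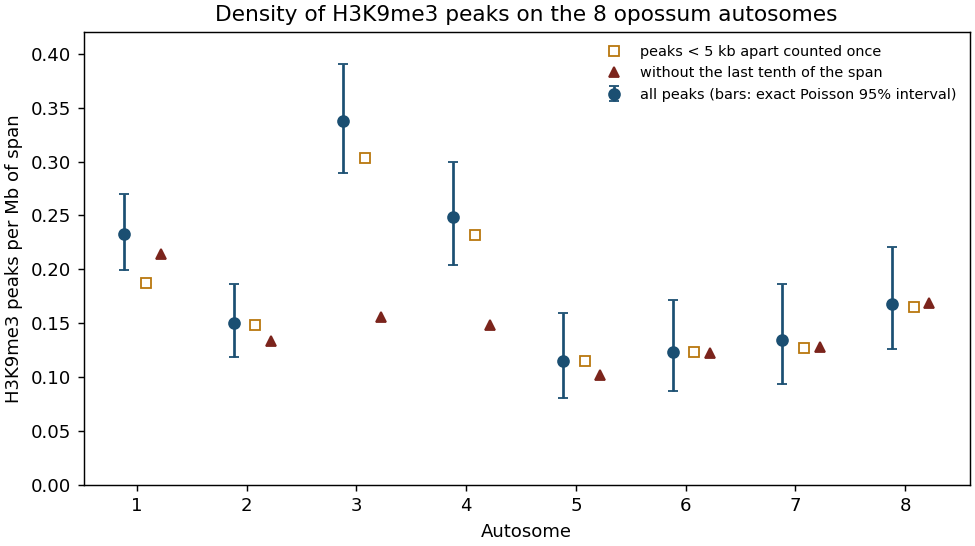
H3K9me3 peaks per Mb of span for each autosome, with all peaks (circles, bars giving the exact Poisson 95% interval), with peaks less than 5 kb apart counted once (squares) and without the final 10% of the span (triangles). Chromosome 3 stands highest at 0.337 per Mb and drops to 0.156 per Mb without its final 10%.

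The dense parts of chromosomes 3 and 4 lay toward their high-numbered ends. The span of each autosome was cut into 10 equal parts. The final part held 104 of the 178 peaks of chromosome 3 (58.4%) and 50 of the 108 peaks of chromosome 4 (46.3%), at 1.97 and 1.15 peaks per Mb. On the other 6 autosomes it held from 9.62% of the peaks (chromosome 8) to 20% (chromosome 5). With the final part left out, chromosome 3 had 0.156 and chromosome 4 had 0.148 peaks per Mb, chromosome 1 was the densest at 0.214, and chromosome 5 the sparsest at 0.102. When the 2 bins of the large chromosome 1 cluster were left out as well, chromosome 1 had 0.151 and chromosome 8 was the densest at 0.169. Over all autosomes together, 31.6% of H3K9me3 peaks lay in the final part, against 19.99% of H3K27me3, 15.5% of H3K4me3 and 10.98% of H3K9Ac peaks. The first part held 8.15% of H3K9me3 peaks, with the highest density there on chromosome 7 (0.307 per Mb, 8 peaks). Chromosome 3 was dense up to its last megabases, with 33 peaks in the final 10 Mb, none of them overlapping another list, and 92 in the final 30 Mb. Chromosome 4 was not, with 2 peaks in its final 10 Mb, 14 in the final 30 Mb and 53 in the final 50 Mb. Chromosome 1 also had peaks near its end, 17 in the final 10 Mb, of which 15 overlapped no other list.

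**Figure D2:**
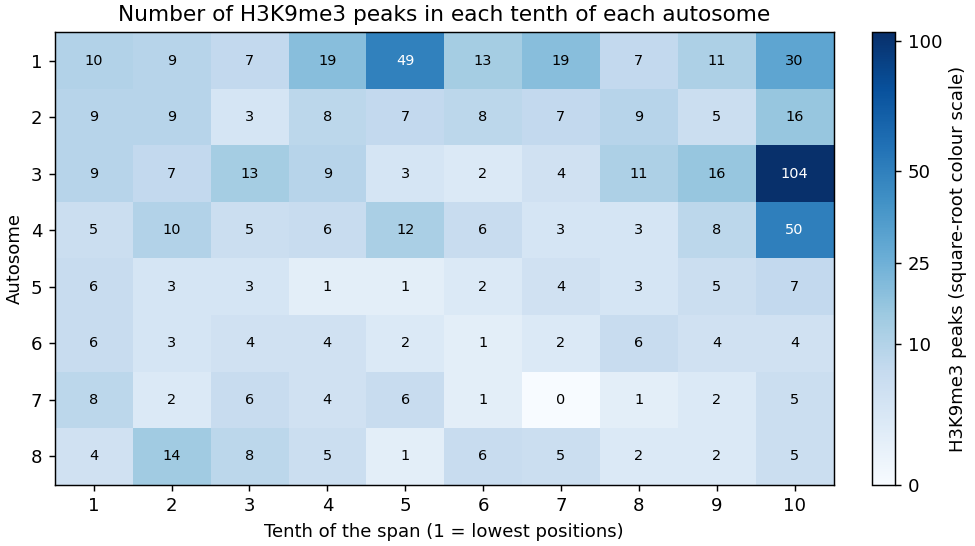
Number of H3K9me3 peaks in each of 10 equal parts of the span of each autosome, ordered from low to high positions, on a square-root colour scale. The final part of chromosome 3 (104 peaks) and of chromosome 4 (50 peaks) and the middle of chromosome 1 (49 peaks) stand out.

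Spacing showed the same concentration. Among the 691 gaps between neighbouring peaks of a chromosome the median was 1.81 Mb and the mean 4.91 Mb, and 124 gaps exceeded 10 Mb. At the other extreme 36 gaps were shorter than 1 kb, the shortest being 4 bp. The median gap was 0.369 of the mean gap, beside 0.357 for H3K4me3, 0.328 for H3K9Ac and 0.0733 for H3K27me3. By this ratio uneven spacing was not particular to H3K9me3. The median distance from a peak to its nearest H3K9me3 neighbour was 75.5 kb on chromosome 3, 437 kb on chromosome 1 and 707 kb on chromosome 4. On the other 5 autosomes it lay between 1534 kb and 2950 kb, the largest value being that of chromosome 6. A neighbour less than 5 kb away was found for 93 peaks (13.3%, exact binomial 95% interval 10.9% to 16.0%), a smaller share than in the far larger lists of H3K27me3 (61.6%), H3K4me3 (29.0%) and H3K9Ac (29.1%). Such close neighbours, called a run here, made up 24.7% of the peaks of chromosome 1, 16.9% of chromosome 3, 11.4% of chromosome 7 (4 of 35) and 11.1% of chromosome 4. Without 1 cluster of 43 peaks, described further on, the share on chromosome 1 was 6.87% (9 of 131), under those of the other 3. Chromosomes 5 and 6 had none, and a count of 0 among 35 and 36 peaks allows a share of up to 8.57% and 8.33% (3 counts of the total, counting error only). There were 30 runs, 20 of them pairs, and 26 of the 30 lay on chromosomes 1, 3 and 4.

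**Figure D3:**
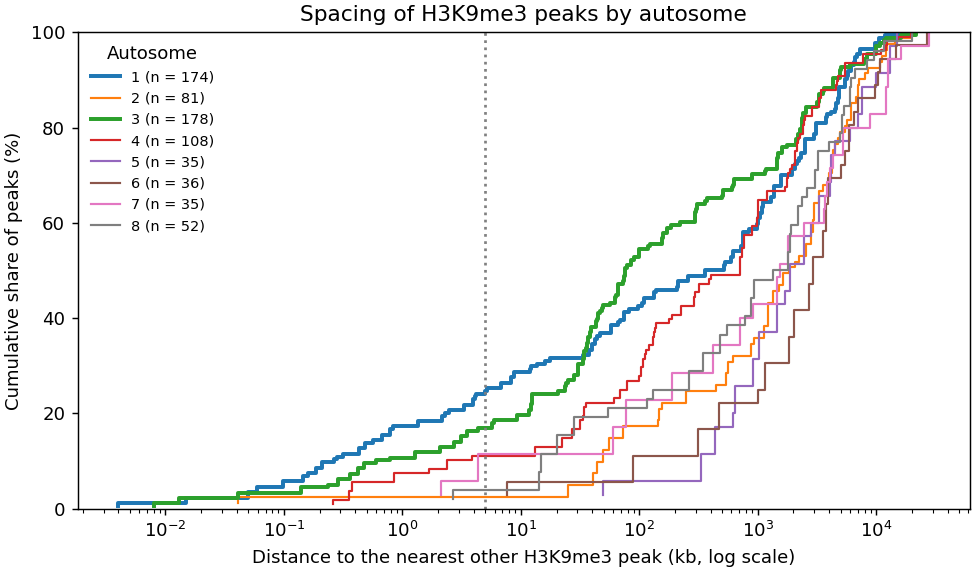
Cumulative share of the H3K9me3 peaks of each autosome by distance to the nearest other H3K9me3 peak, in kb on a log scale, with a dotted line at 5 kb. Chromosome 3 reaches its median at 75.5 kb and chromosome 1 at 437 kb, while the curves of chromosomes 2, 5, 6, 7 and 8 lie to the right with medians above 1500 kb.

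Counted in 3422 bins of 1 Mb, 458 bins (13.4%) held an H3K9me3 peak and 383 of these held exactly 1. The 38 bins with 3 or more peaks, 1.11% of all, held 242 peaks, 34.6% of the members. Of those bins, 15 were on chromosome 3, 8 on chromosome 1, 8 on chromosome 4, 3 on chromosome 2, 3 on chromosome 8 and 1 on chromosome 7. The variance of the count per bin was 4.34 times its mean, and 2.61 times without the 2 densest bins. The longest peak-free stretches ran from 30.5 Mb on chromosome 6 to 49.1 Mb on chromosome 7 (chr7:140763620-189902815). That stretch of chromosome 7 contained 91 H3K27me3, 207 H3K4me3 and 118 H3K9Ac peaks. The longest on chromosome 2 (chr2:124743109-172060770, 47.3 Mb) held 284 H3K4me3 peaks, or 6.00 per Mb, near the autosomal 6.46. That on chromosome 8 (chr8:132480464-178409509, 45.9 Mb) was poorer in all the marks, with 0.501 H3K27me3 and 3.57 H3K4me3 peaks per Mb.

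Linking peaks less than 1 Mb apart, a limit chosen after the spacing was seen, gave 7 clusters of 10 or more peaks that held 194 members (27.8%), while 316 peaks (45.2%) had no neighbour within that distance. The clusters differed in the other marks they met. In the largest, chr3:499583210-504555777, 55 peaks lay in 4.97 Mb, and 45 of them overlapped no other list. In chr4:399434457-405894755, 37 peaks lay in 6.46 Mb, of which 36 overlapped nothing else. In the clusters chr3:521247925-523747443 and chr3:525268688-526830934, with 17 and 16 peaks, none met another mark. Chr1:743962663-746211314 had 16 peaks, 14 of them alone, and chr8:35536126-36270958 had 10, 9 of them alone. Median scores of these 6 clusters ran from 61.8 to 77.9, above the 58.1 of all members. The exception in composition was chr1:332594718-333257129, where 43 peaks lay within 662 kb and 42 of them overlapped H3K27me3.

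The bins with 3 or more H3K9me3 peaks were also rich in H3K4me3, although most H3K9me3 peaks of these clusters did not touch it. These 38 bins held 16.2 H3K4me3 peaks on average (median 17), against 6.16 (median 5) in the 2964 bins with no H3K9me3 peak. Bins with fewer H3K9me3 peaks lay between in their means, at 7.56 in the 383 bins with 1 and 8.86 in the 37 bins with 2. Their medians were 6 and 4, so the median did not rise steadily. No H3K4me3 peak was found in 13.8% of the bins with no H3K9me3, 14.1% of those with 1, 24.3% of those with 2 and none of the 38. The mean was 17.6 in the 15 such bins of chromosome 3 and 15.3 in the 23 on other autosomes. H3K9Ac differed less and numbered 4.08 peaks per bin in the 38 bins and 3.38 in bins without H3K9me3. Of the 616 H3K4me3 peaks in the 38 bins, 144 (23.4%) overlapped H3K9Ac, against 7913 of 18247 (43.4%) in bins without H3K9me3. The share was 19.7% on chromosome 3 and 26.1% on the other autosomes. In the cluster at chr3:499583210-504555777 only 8 of 122 H3K4me3 peaks (6.56%) overlapped H3K9Ac, and in that of chr4:399434457-405894755 the number was 42 of 126 (33.3%). The H3K4me3 peaks of the 38 bins had a median score within their own list of 292, against 349 in bins without H3K9me3, and the part of this lower score in the difference in acetylation was not tested. Part of the 38 bins lay toward the ends of chromosomes 3 and 4, which were rich in H3K4me3 over wider regions. With those bins included, the final 50 Mb of chromosome 3 held 675 H3K4me3 and 211 H3K9Ac peaks. On chromosome 4 the same length held 683 and 247, where all autosomes had 6.46 H3K4me3 and 3.47 H3K9Ac peaks per Mb. Such an end was not particular to these chromosomes, since the final 50 Mb of chromosome 2 held 675 H3K4me3 and 269 H3K9Ac peaks. It held 16 H3K9me3 peaks, against 103 on chromosome 3 and 53 on chromosome 4. The remaining autosomes had from 287 (chromosome 7) to 440 (chromosome 1) H3K4me3 peaks there. The part of the region in the differences between bins was not tested.

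Overlap with the other lists, taken as at least 1 bp in common, divided the members. In a tissue of many cell types an overlap of peaks can arise from marks on the same chromatin or in different cells, and the lists cannot tell these apart. No other list was met by 524 peaks (74.96%, exact binomial 95% interval 71.6% to 78.1%). H3K27me3 was met by 128 peaks (18.3%, 15.5% to 21.4%), which is 33.6 times the share of the span that H3K27me3 covers. H3K4me3 was met by 108 (15.5%, 12.9% to 18.3%), 10.1 times its cover, and H3K9Ac by 32 (4.58%, 3.15% to 6.40%), 11.4 times its cover. A peak has width and so meets a list more often than its cover, which makes these ratios descriptions and not tests. The intervals take peaks as independent although they are clustered. Of the 128 peaks that met H3K27me3, 42 lay in 1 cluster on chromosome 1. Without that cluster 13.1% met H3K27me3, below the interval given, and the ratio of 33.6 was not recomputed. Seen from the other lists the overlap was small, involving 94 of 7485 H3K27me3 peaks (1.26%), 107 of 22086 H3K4me3 peaks (0.484%) and 34 of 11858 H3K9Ac peaks (0.287%). Of the peaks that met H3K27me3, 87 of 128 (68.0%) lay wholly inside it, against 63 of 108 (58.3%) for H3K4me3 and 11 of 32 (34.4%) for H3K9Ac. Near misses were few, since only 4 further peaks lay within 1 kb of H3K27me3 and 16 within 1 kb of H3K4me3. The peaks that missed H3K27me3 lay a median of 348 kb from it, and those that missed H3K4me3 a median of 45.1 kb.

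The combinations were uneven. H3K27me3 alone was met by 63 peaks, H3K4me3 with H3K27me3 by 55, H3K4me3 alone by 25, H3K4me3 with H3K9Ac by 20, all 3 marks by 8, H3K9Ac alone by 2 and H3K9Ac with H3K27me3 by 2. Of the 108 peaks meeting H3K4me3, 63 (58.3%) lay at sites that also carried H3K27me3, the pair known from bivalent promoters. Among all autosomal H3K4me3 peaks, 3647 of 22086 (16.5%) overlapped H3K27me3. The 63 include 9 peaks of the chromosome 1 cluster at chr1:332594718-333257129. On chromosome 1, 34.5% of the peaks met H3K27me3 (exact binomial 95% interval 27.5% to 42.1%), but 13.7% (18 of 131) did without its cluster at chr1:332594718-333257129. The other autosomes ranged from 10.1% on chromosome 3 (6.10% to 15.5%) to 25.7% on chromosome 7 (12.5% to 43.3%). Without that cluster, 86 of 656 autosomal peaks (13.1%) met H3K27me3. The share in H3K4me3 ran from 11.4% on chromosome 5 to 27.8% on chromosome 6 (10 of 36 peaks, 14.2% to 45.2%), with intervals that all overlap. Peaks free of the other lists made up from 68.6% (chromosome 7) to 84.3% (chromosome 4) on the autosomes other than chromosome 1, where the share was 61.5%, or 80.9% without its cluster.

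Peaks inside H3K27me3 scored higher than peaks outside it. The 128 had a median score of 75.7 (95% interval of the median from ranks 68.5 to 87.0) and a median width of 1104.5 bp, and the other 571 had 57.1 (56.1 to 57.8) and 838 bp. The difference was present without the chromosome 1 cluster (71.9 and 57.1), among peaks outside runs (66.8 and 56.5) and among peaks of at most 1000 bp (58.0 and 54.8), where it was smallest. Neighbouring peaks share sequence and libraries, and no test was made. With the peaks divided into 4 equal classes by score, the share meeting H3K27me3 was 6.82%, 11.4%, 16.7% and 38.5% from the lowest to the highest. The share meeting H3K4me3 was near 12% in the lower 3 classes (11.9%, 10.9% and 12.1%) and 27.01% in the highest. For H3K9Ac there was no such order, the 4 shares lying between 4.02% and 5.17%. The 4 classes also differed in width, with medians of 785, 801, 880.5 and 1416.5 bp from the lowest to the highest score. The highest class, from a score of 75.09, includes peaks of the chromosome 1 cluster, whose median score was 87.4. In that cluster 42 of 43 peaks met H3K27me3. The shares were not computed without it, and the part of width was not tested. The 20 peaks with H3K4me3 and H3K9Ac but not H3K27me3 had the lowest median score of the classes, 55.6, a highest score of 82.9 and none in a run. No peak free of the other lists scored above 192.8, and all 15 peaks scoring over 200 met another list, 13 of them H3K27me3, 10 H3K4me3 and 1 H3K9Ac. The 15 are not separate places, since 5 lay in the chromosome 1 cluster and 2 formed a single run on chromosome 7.

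**Figure D4:**
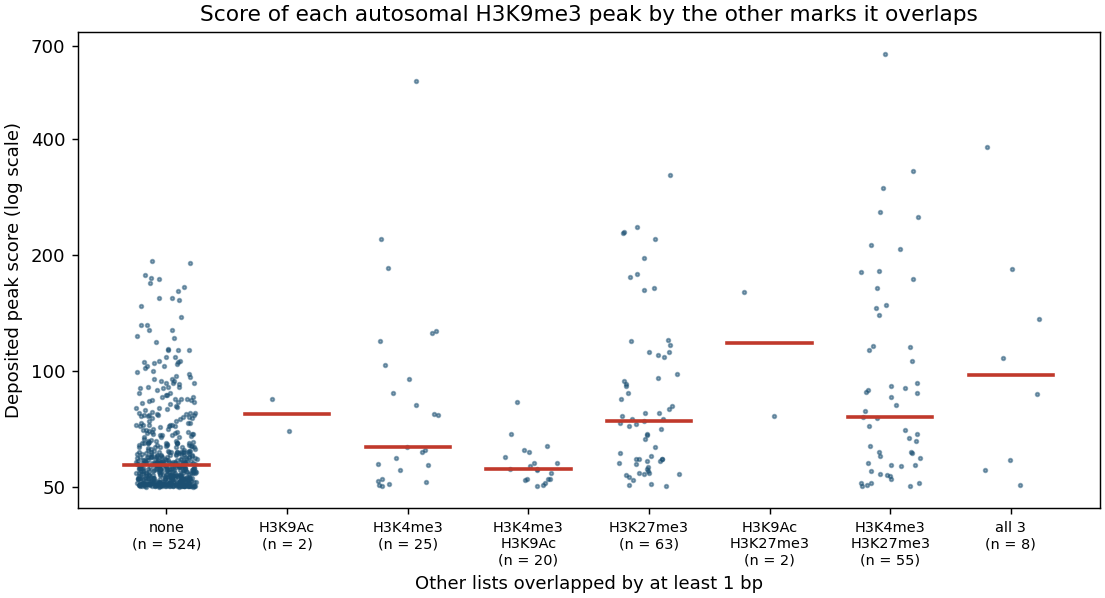
Deposited score of each of the 699 autosomal H3K9me3 peaks (points, log scale) by the other lists it overlaps, with the median of each class as a red line. The 524 peaks free of other marks have a median of 56.9 and stop at 192.8, and all scores over 200 belong to peaks with another mark.

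The 10 highest-scoring peaks lay on chromosomes 1, 3, 5, 7 and 8. The 2 highest, chr7:15707196-15709722 (2527 bp, score 666) and chr7:15711831-15713561 (1731 bp, score 565), lay 2.11 kb apart and formed a run of their own. Each coincided almost exactly with an H3K4me3 peak, chr7:15707196-15709680 and chr7:15711840-15713549, and the first also with an H3K27me3 peak, chr7:15707106-15709682. The nearest H3K9Ac peak lay 1391 kb from the first. The third highest, chr7:341043-342764 (score 381), is in the first 1 Mb of the same chromosome and met all the other marks, with an H3K27me3 peak at chr7:340896-342950, an H3K4me3 peak at chr7:340961-342519 and an H3K9Ac peak at chr7:341388-342608. The fourth, chr3:509449369-509450364 (996 bp, score 331), met an H3K27me3 peak scoring 272 in its list and an H3K4me3 peak scoring 53.6. Of the remaining 6 of the 10 highest, 3 belonged to the chromosome 1 cluster (scores 323, 299 and 229), in runs of 21, 21 and 5 peaks, 2 lay near the end of chromosome 5 (chr5:301236324-301237966, score 258, and chr5:304402005-304402664, score 236) and 1 was chr8:79102688-79103910 (score 252). The top peaks of chromosomes 6 and 2 were chr6:267392962-267393528, which scored 115.3 and met H3K27me3 and H3K4me3, and chr2:515437198-515438862, which scored 183.6 and met all 3 other marks. The top peak of chromosome 4, chr4:412379918-412382141 (2224 bp, score 192.8), was the only one among the 8 autosomes to meet no other list, with H3K4me3 32.7 kb away.

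Some peaks shared nearly their whole extent with another mark. For 11 of the 108 peaks that met H3K4me3 the bases in common were at least 80% of the bases under either peak. Their median score was 136.6, and 6 of them scored over 100. The same held for 9 of the 128 that met H3K27me3 (median score 93.1) and 5 of the 32 that met H3K9Ac (82.9). Over all overlaps the bases in common were a median of 16.7% of the combined extent with H3K27me3 and 35.6% with H3K4me3. The chromosome 1 cluster, with its wide H3K27me3 peaks, supplied 42 of the 128 overlaps with H3K27me3. Without it the H3K9me3 peaks meeting H3K27me3 had a median width of 1006.5 bp, and their partners 1623.5 bp. The shared extent was not computed without the cluster. Among the 8 peaks that met all 3 other marks, chr1:122720643-122721333 (691 bp, score 50.7) sat inside an H3K4me3 peak of 10466 bp and an H3K27me3 peak of 7387 bp. At chr1:438338997-438340121 (1125 bp, score 136.6), in contrast, the 4 peaks were of like width, at 993 bp for H3K27me3, 1400 bp for H3K4me3 and 1053 bp for H3K9Ac.

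The H3K27me3 peaks that held H3K9me3 were wider and stronger than their list as a whole. Their median width was 1991.5 bp, against 1478 bp for all autosomal H3K27me3 peaks, and their median score lay at the 72.4th percentile of that list (67.7 without the chromosome 1 cluster, where the median width was 1623.5 bp). For H3K4me3 the partners were ordinary, at the 46.7th percentile of score and a median width of 1974 bp beside 2029 bp for the list. A wide peak meets others more often, and the part of width was not tested. Of the 94 H3K27me3 partners, 86 held 1 H3K9me3 peak, 5 held 2, and 3 held 7, 9 and 17. These last 3 are chr1:332642675-332715021, the widest autosomal H3K27me3 peak at 72347 bp, chr1:333164003-333204918 (40916 bp) and chr1:333204920-333254565 (49646 bp, the second widest). All 3 have the H3K27me3 score of 3100, which does not set them apart, since partners that held 1 H3K9me3 peak on other chromosomes have it too. The third widest H3K27me3 peak, chr4:187431092-187478660 (47569 bp), held only 1.

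The cluster at chr1:332594718-333257129 contained the longest run of the autosomes. H3K27me3 covered 61.0% of its 662 kb with 49 peaks. Its 43 H3K9me3 peaks, 6.15% of the members, supplied 32.8% of all autosomal overlaps with H3K27me3. They had a median score of 87.4 (50.6 to 323) and a median width of 1287 bp. Within it, 13 H3K4me3 peaks but no H3K9Ac peak were found, and 9 of the H3K9me3 peaks met H3K4me3. The longest run, chr1:333191576-333250827, had 21 peaks in 59.3 kb that filled 67.6% of it, with scores from 53.9 to 323. Adjoining H3K27me3 peaks filled 99.998% of that run, and 7 H3K4me3 peaks filled 15.8%. The run next to it, chr1:333167512-333185600, had 5 peaks in 18.1 kb, all inside 1 H3K27me3 peak. The second largest run, chr3:501655830-501669676, was of another make-up, with 6 peaks filling 81.4% of 13.8 kb, of which 3 met H3K27me3 and 4 met H3K4me3. Several runs of 3 met no other mark, among them chr3:526141763-526148602 (scores 99.4 to 161.6, filling 82.2% of 6.84 kb) and chr4:411740405-411749410 (51.0 to 137.9, filling 47.4% of 9.01 kb).

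**Figure D5:**
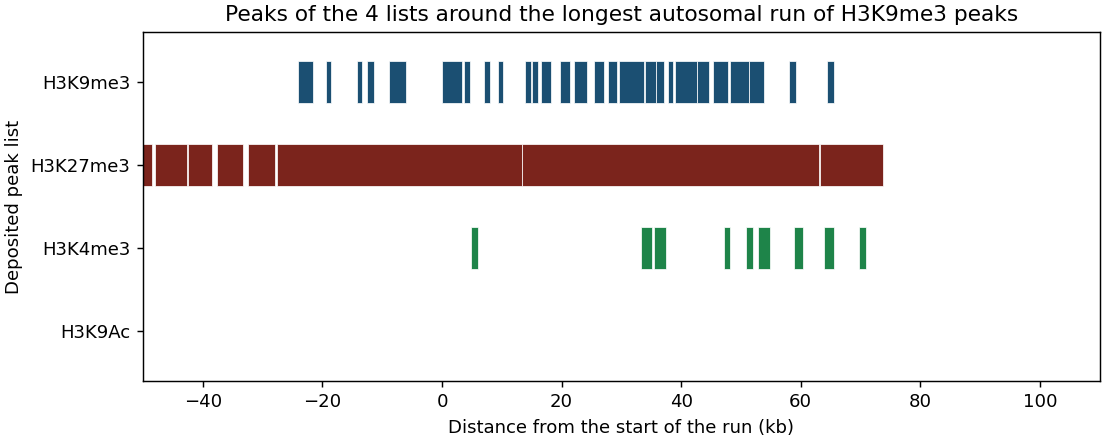
Peaks of the 4 deposited lists around the longest autosomal run of H3K9me3 peaks, with distance in kb from the start of the run. The 21 H3K9me3 peaks of the run, from 0 to 59.3 kb, lie within 2 adjoining H3K27me3 peaks, with scattered H3K4me3 peaks and no H3K9Ac peak in the window.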

How the data were processed

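Per the submitters' processing notes the tools were MACS 1.0.1, Bowtie 1.1.2 and CASAVA 1.7. Their settings, the build, the control library, the threshold and the pooling are not given in the labels or files used. Per the file headers the deposited lists hold MACS peaks, and per the labels a mark's libraries point to a single list. The score is the authors' deposited value per peak, with no header saying how it was computed. Starts are printed counting from 1, and 1 H3K9me3 peak on chromosome 3 begins before position 1.

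Computed here were widths, gaps from end to start, runs (gaps under 5 kb), bins of 1 Mb, overlaps of at least 1 bp, exact Poisson and binomial 95% intervals (counting error only) and rank intervals of medians. The regions named are the strongest and widest peaks of each autosome and of the list, the runs and bins with most peaks, the longest gaps and the peaks meeting all 3 other marks, and those that carry a comparison are printed. Members and lists were chosen with earlier results of these data known, and clusters of peaks under 1 Mb apart, shared extents, partner widths and the marks around dense bins were added after the values were seen. Counts of runs and overlaps were tested on simulated data, in which 10 of 10 lists of 699 peaks gave the planted counts. No test compares samples, and no sequence was used. The software was pandas 2.3.3, scipy 1.17.1, numpy 2.4.6 and matplotlib 3.10.9 under Python 3.11.15.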

Additional observations from a re-analysis of the deposited data

How the results depend on the processing

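Of 54 recomputed values of the main measures, 32 stayed within the interval of the reported value, or within 1.5 times for density. No paired analysis was possible because both libraries of a mark share 1 list, and for the same reason no replicate could be left out. With only the top-scoring 50% of peaks, density was 0.102 per Mb by construction, 18.3% of peaks lay in runs, and 27.4% met H3K27me3, 19.4% H3K4me3 and 65.7% nothing. With the top-scoring 50% of both lists 20.6% met H3K27me3, 6% H3K4me3 and 2.86% H3K9Ac. The share in runs was 8.44% for gaps under 1 kb and 33.9% under 100 kb. Without the 2 densest bins it was 8.33%, with 14.5% in H3K27me3 and 78.7% free. Without the 2 bins of the large chromosome 1 cluster, added after the data were seen, it was 8.99%, with 13.1% in H3K27me3 and 79.7% free. Without the final 10% of each autosome, also added then, 21.5% met H3K27me3 and 71.5% nothing, the median score was 57.2 and the median width 831.5 bp. With 1 value per bin, 6.55% met H3K9Ac and the medians were 56.9 and 819 bp. The causes of these shifts were not tested beyond what the settings remove. Chromosome 3 was the densest and chromosome 5 the sparsest under the other 5 settings, and without the final 10% chromosome 1 took the first place, which it lost to chromosome 8 when its cluster was left out too (0.151 against 0.169 per Mb). Scores close to the lowest value of the list and an unknown depth limit what these lists can show of weak H3K9me3.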
